A study of Mus musculus with 24 samples.

Results

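Igfbp7, Cd9, Trib1 and Myadm are 4 of the 96 genes on a custom NanoString nCounter panel measured in regulatory T cells (Tregs) of mouse visceral adipose tissue (VAT). They were chosen by their measured signal, which was higher in insulin receptor knockout than in control Tregs at 52 weeks of age. The values of the 52-week mice are therefore given as a description, without a test, and tests are given for the 16-week mice, which played no role in that choice. All 24 animals were male C57/Bl6 mice carrying the Foxp3-YFP-Cre allele, in which the Foxp3 locus drives the recombinase and a yellow fluorescent protein. Controls had wild-type Insr alleles (Insr-wt/wt), and knockouts had both alleles floxed (Insr-fl/fl), so that Cre removes the insulin receptor. Per the labels' protocols, this Cre line also recombines in some cells that are not Tregs. Normal chow (NCD) was given to 3 controls and 3 knockouts, and a diet rich in fat and sucrose (HFD) to 4 controls and 5 knockouts, all fed from 3 weeks of age for 13 weeks and studied at 16 weeks. Another 3 control and 6 knockout mice were kept on NCD to 52 weeks. The study asked what loss of the receptor does to VAT Tregs when diet or age has raised insulin. Each sample is 1 mouse, since the fat of each animal was digested separately, and Tregs were sorted as CD45+ CD4+ YFP+ cells.

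VAT Tregs are a tissue population that builds up in the fat of lean male mice as they mature, depends on the transcription factor PPARγ and on interleukin 33 signalling through its receptor ST2 (Il1rl1), and restrains fat inflammation. Igfbp7 encodes a secreted protein of the insulin-like growth factor binding family, which binds these growth factors only weakly and also binds insulin. Cd9 encodes a tetraspanin, a membrane protein that gathers integrins and other partners into microdomains at the cell surface. Trib1 encodes a pseudokinase that acts as a scaffold: it brings the transcription factor C/EBPα to the ubiquitin ligase COP1 and binds kinases of the MAPK pathway. Myadm encodes a membrane protein with several membrane-spanning segments that sits in lipid rafts and was first described in differentiating myeloid cells.

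In the RefSeq annotation of build GRCm38.p6, Igfbp7 spans chr5:77349240-77408045, Cd9 chr6:125460266-125494760, Myadm chr7:3289038-3299355 and Trib1 chr15:59648654-59657099. The 250 bases before the annotated start are shown from RefSeq for the 3 genes matched of 4, because these genes were chosen for moving in the same direction and their upstream sequences can be set side by side. Myadm has 4 annotated starts, and the window is the one at the start of the gene. Capitals mark the Sp1 GC box, GGGCGG, on either strand, so that it reads CCGCCC where it lies on the opposite strand.
Igfbp7, chr5:77408046-77408295, minus strand: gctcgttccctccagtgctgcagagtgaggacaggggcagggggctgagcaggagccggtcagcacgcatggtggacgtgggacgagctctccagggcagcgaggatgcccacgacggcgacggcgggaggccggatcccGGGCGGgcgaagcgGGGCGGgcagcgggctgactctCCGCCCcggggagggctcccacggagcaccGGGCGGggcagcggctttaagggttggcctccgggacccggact
Cd9, chr6:125494761-125495010, minus strand: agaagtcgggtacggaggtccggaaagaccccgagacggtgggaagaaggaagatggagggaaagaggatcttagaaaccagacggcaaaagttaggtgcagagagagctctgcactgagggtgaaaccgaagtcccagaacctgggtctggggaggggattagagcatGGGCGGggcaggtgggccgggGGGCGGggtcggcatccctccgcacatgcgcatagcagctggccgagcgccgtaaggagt
Myadm, chr7:3288788-3289037, plus strand: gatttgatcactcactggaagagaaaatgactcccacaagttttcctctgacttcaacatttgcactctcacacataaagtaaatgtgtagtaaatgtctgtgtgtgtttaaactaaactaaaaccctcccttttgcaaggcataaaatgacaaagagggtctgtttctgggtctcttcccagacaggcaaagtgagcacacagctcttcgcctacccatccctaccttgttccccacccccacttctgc
The GC box occurred 4 times before Igfbp7, 2 times before Cd9 and 0 times before Myadm. It is present in 32.7% of the 32851 RefSeq promoter windows searched over the same length. GC content was 74% before Igfbp7, 61.6% before Cd9 and 44.4% before Myadm, against a median of 52.4% over all windows. None of the 3 windows held, on either strand, the AP-1 letters TGANTCA (6.75% of windows), the cAMP response element TGACGTCA (1.55%), the forkhead letters GTAAACA (3.17%) or the TATA box TATAAA (12.4%). A motif here is a match of letters and no evidence of binding.

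The deposited unit is nCounter signal, that is, counts scaled by the authors to a similar sum in each sample. The sum was 100000 in 12 of 14 knockouts and above that in all 10 controls, up to 126723, so it moved with genotype. Rescaling every mouse to a single sum left the members called at 16 weeks as they were. Dividing by a step specific to the sample gave a whole number (tolerance 0.02) for 2302 of 2304 values, which recovers the counts. They totalled 11446 to 224793 per mouse with a median of 49098, and only 11446 to 23790 in the NCD knockouts, where the 4 genes rested on 18 to 113 counts each. InsR checked the labels: its signal was 59.5 to 159 in NCD controls against 4.21 to 17.5 in NCD knockouts, 49.8 to 125 against 1.78 to 8.57 on HFD, and 294 to 513 against 2.23 to 18.6 at 52 weeks. The groups did not overlap. The summed signal of the 3 Treg markers measured of 6 listed (CD25, Foxp3 and Helios) was 5455 to 14361 over the 16-week mice, 3933 to 6650 in aged controls and 598 to 4114 in aged knockouts. Tcra, the 1 T cell marker measured of 6 listed, was 125 to 2725 over the 16-week mice, 474 to 2090 in aged controls and 7.43 to 698 in aged knockouts. Lyz2, the 1 myeloid marker measured of 10 listed, was 30.5 to 453 over the 16-week mice, 132 to 4806 in aged controls and 198 to 6875 in aged knockouts. No listed marker of B cells, CD8 T cells, stromal cells, endothelium or adipocytes was measured. Lyz2 was 6875 and Foxp3 172 in aged knockout replicate 6, and 4806 and 1462 in aged control replicate 1. In aged knockout replicate 1 they were 198 and 1418, so their order differed among aged mice. In such bulk samples, fewer cells of a type cannot be told apart from less RNA per cell, and the part of these markers in the 52-week values was not tested. Whether other sorted cells added to the signal was not tested either.

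At 52 weeks all 4 genes were higher in knockout cells sorted as Tregs, by the rule that chose them. Igfbp7, the growth factor binding protein, had a signal of 4376, 5941, 8571, 8202, 2001 and 3622 in the 6 knockouts and of 987, 202 and 2143 in the 3 controls. The knockout values were high throughout and took 5.45% of the panel total on average, but the lowest knockout lay just under the highest control. The means were 5452 ± 2606 (SD, n = 6) and 1111 ± 976 (SD, n = 3), a 4.91-fold ratio, and the difference on the log2(signal + 1) scale, used for all differences here, was 2.69 with a standard error of 0.88. Cd9, the tetraspanin, was 696, 1075, 1180, 1275, 442 and 1073 in knockouts and 431, 109 and 283 in controls. Every knockout was above every control, although the lowest knockout and the highest control were almost level. The Cd9 means were 957 ± 320 (SD, n = 6) and 274 ± 161 (SD, n = 3), with a log2 difference of 1.92 (SE 0.55).

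Trib1, the pseudokinase, was 1083, 740, 451, 561, 503 and 486 in aged knockouts and 391, 201 and 254 in aged controls. The groups did not overlap, and knockout replicate 1 stood highest. The log2 difference was 1.16 (SE 0.36), with means of 637 ± 241 (SD, n = 6) and 282 ± 98.3 (SD, n = 3). Myadm, the raft protein, was 1611, 2426, 2212, 2327, 1559 and 1526 in aged knockouts and 1025, 1173 and 643 in aged controls. The groups did not overlap here either, and the knockouts varied little among themselves. The means were 1944 ± 421 (SD, n = 6) and 947 ± 273 (SD, n = 3), with a log2 difference of 1.05 (SE 0.44). Knockouts lay above all controls for 3 of the 4 members and for 5.21% of panel genes. The rule used this contrast, so nothing is read from that share.

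**Figure D1:**
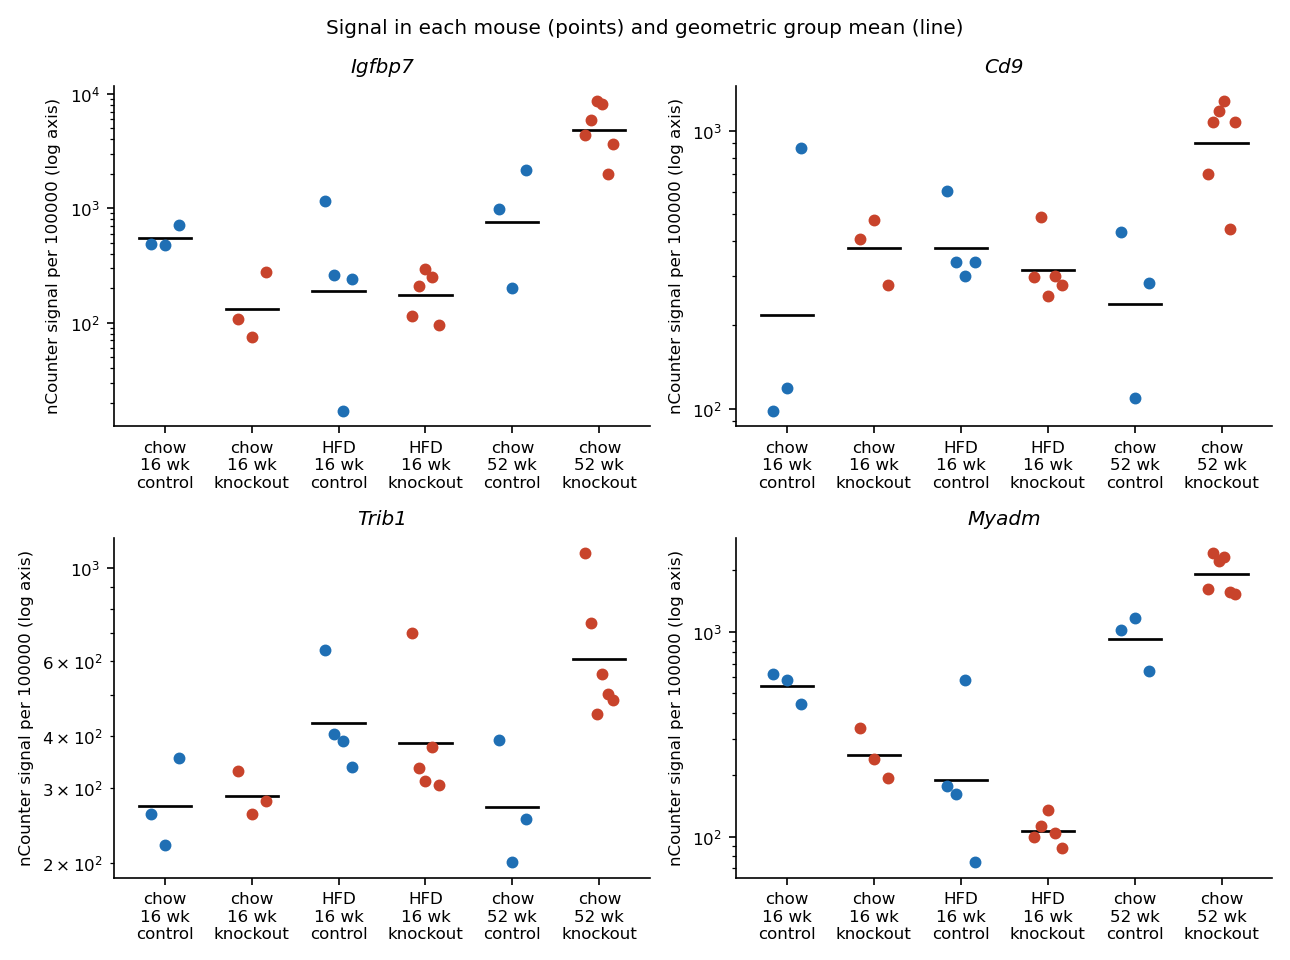
Signal of Igfbp7, Cd9, Trib1 and Myadm in each of the 24 mice (points; log axis, nCounter signal per 100000), with the geometric mean of each group as a line, for controls in blue and knockouts in red. The 6 aged knockouts lie between 2001 and 8571 for Igfbp7 and between 1526 and 2426 for Myadm, and Myadm on HFD lies lowest.

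The members did not hold the top places alone. Ordered by the log2 difference at 52 weeks, Igfbp7 was in place 1, Cd9 in place 2, Trib1 in place 6 and Myadm in place 10 of 96. The 6 other genes above Myadm, named after their values were seen, were Lif, Lgals3, Cd80, Idi1, Dmxl2 and Klf4, with differences of 1.06 to 1.52. The next gene below Myadm was Anxa1 at 1.02. The panel median in this contrast was a log2 difference of -0.60, and 32 of 96 genes were above 0. With each mouse centred on its own panel median, the member differences were 3.56 for Igfbp7, 2.79 for Cd9, 2.03 for Trib1 and 1.93 for Myadm. The size of the Igfbp7 and Cd9 differences rested partly on aged control replicate 2, the lowest control for both: without it they were 1.74 and 1.37. Without aged control replicate 3, the Igfbp7 difference was 3.44.

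In the 16-week mice, the genotype contrast asks whether the same genes were already higher in knockouts before age is added. A rise was not shown for any of the 4. On NCD the log2 difference, knockout minus control, was above 0 for Cd9 (0.80) and Trib1 (0.08) and below 0 for Igfbp7 and Myadm. The confidence interval for Cd9 on NCD was wide, -0.52 to 2.12, so a rise of Cd9 there was not excluded. On HFD all 4 differences were below 0. By limma's moderated test with Benjamini-Hochberg adjustment over the 96 genes, 0 of 4 passed the adjusted p threshold of 0.05 on NCD, on HFD or in the mean of both. The panel shares called were 5.21% on NCD, 2.08% on HFD and 2.08% for the mean, so few genes of any kind passed. Voom on the recovered counts also called 0 members in each. At an unadjusted p under 0.05, Myadm alone was reached, on NCD and in the mean of both, and it was lower in knockouts.

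On NCD, Igfbp7 was 492, 476 and 720 in controls and 108, 75.8 and 280 in knockouts. All 3 knockouts lay below all 3 controls, whereas at 52 weeks the knockout mean was the higher one. The means were 562 ± 136 (SD, n = 3) and 154 ± 110 (SD, n = 3). The log2 difference, knockout minus control, was -2.06 (95% CI -4.15 to 0.04, adjusted p = 0.35 by limma). Myadm was 625, 583 and 445 in NCD controls and 339, 240 and 192 in NCD knockouts. Here too every knockout was below every control. Its difference was -1.12 (95% CI -2.16 to -0.08, adjusted p = 0.34 by limma), with means of 551 ± 94.4 and 257 ± 74.8 (SD, n = 3 each). On NCD all knockouts lay below all controls for 13.5% of panel genes, against these 2 of the 4 members. The lowest Igfbp7 value in an NCD knockout rested on 18 counts.

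Cd9 on NCD was 98.3, 119 and 868 in controls and 408, 476 and 280 in knockouts. Control replicate 3 alone stood above all knockouts, and the other two controls stood below them. The log2 difference was 0.80 (95% CI -0.52 to 2.12, adjusted p = 0.69 by limma). NCD control replicate 3 also had the largest panel total, 126723. Without it, the Cd9 difference was 1.80, with an adjusted p of 0.085. Trib1 was 260, 220 and 354 in NCD controls and 329, 261 and 280 in NCD knockouts. These ranges lay on top of each other, with a difference of 0.08 (95% CI -0.78 to 0.95, adjusted p = 0.98 by limma).

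On HFD, Igfbp7 was 1151, 260, 17.1 and 242 in controls and 114, 208, 294, 251 and 95.2 in knockouts. The controls were the most uneven of any group for this gene, 67.5-fold from lowest to highest, and the knockouts fell inside their range. The difference was -0.11 (95% CI -1.83 to 1.61, adjusted p = 0.94 by limma). Cd9 was 609, 338, 299 and 338 in HFD controls and 297, 490, 254, 299 and 278 in HFD knockouts, with a difference of -0.27 (95% CI -1.36 to 0.82, adjusted p = 0.83 by limma). Trib1 was 638, 403, 388 and 338 in HFD controls and 700, 336, 312, 375 and 306 in HFD knockouts, with a difference of -0.15 (95% CI -0.87 to 0.56, adjusted p = 0.84 by limma). The groups overlapped in part. For Cd9, 4 of the 5 knockouts lay below the lowest control, the highest of them by less than 1 unit of signal, and knockout replicate 2 lay above 3 controls. For Trib1, 3 of the 5 knockouts lay below the lowest control, and knockout replicate 1 lay above every control.

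Myadm on HFD was 177, 162, 582 and 75.0 in controls and 100.0, 112, 135, 104 and 88.1 in knockouts. The knockouts formed a tight group, below 3 of the 4 controls and above the lowest control. The difference was -0.81 (95% CI -1.67 to 0.04, adjusted p = 0.40 by limma). HFD control replicate 3 decided much of it, since the difference was -0.27 without that mouse. The same mouse had the lowest Igfbp7 signal of all 24 mice, 17.1, and the highest Myadm signal of its group, 582. Over both diets with equal weight, the Myadm difference was -0.97 (95% CI -1.64 to -0.29, adjusted p = 0.11 by limma). It passed without HFD control replicate 4, at an adjusted p of 0.017. For the other members the mean differences were -1.08 for Igfbp7 (adjusted p = 0.45), 0.26 for Cd9 (adjusted p = 0.85) and -0.04 for Trib1 (adjusted p = 0.98).

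**Figure D2:**
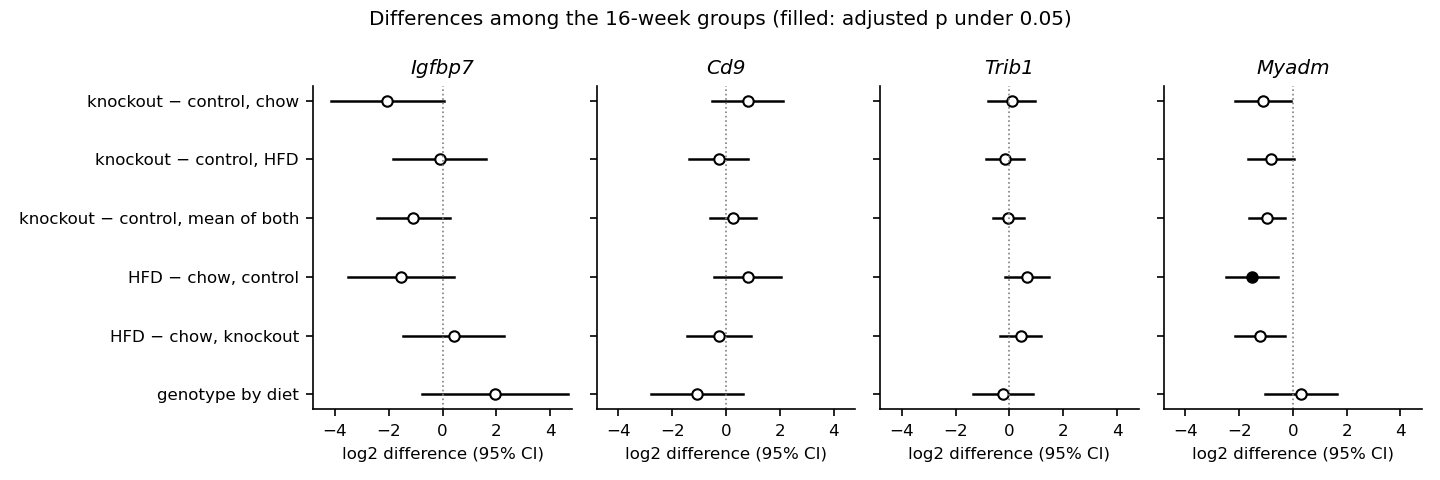
Log2 differences of the 4 genes in the 6 contrasts among 16-week mice (x axis; points with 95% confidence intervals), with filled points where the adjusted p was under 0.05. The only filled point is Myadm for HFD minus chow in controls, at -1.53.

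Diet gave a call for Myadm at 16 weeks and for none of the other members. In control Tregs Myadm fell on HFD, from 551 ± 94.4 (SD, n = 3) to 249 ± 227 (SD, n = 4). The log2 difference, HFD minus NCD, was -1.53 (95% CI -2.50 to -0.55, adjusted p = 0.017 by limma). Of the 4 HFD controls, 3 lay below every NCD control, and HFD control replicate 3 lay within their range. The members called were 1 of 4 and the panel share was 20.8%, of which 17.7% were lower, so a fall on HFD was frequent on this panel. The panel median was -0.52, and with each mouse centred on its own median the Myadm difference was -0.91 with an adjusted p of 0.23. The call was also lost in a fit of these 2 groups alone (adjusted p = 0.17), with voom (0.072), and without NCD control replicate 1 (0.072), NCD control replicate 2 (0.063) or HFD control replicate 4 (0.078).

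In knockout Tregs the Myadm difference between diets was of similar size, -1.22 (95% CI -2.15 to -0.29), and did not pass (adjusted p = 0.063 by limma). All 5 HFD knockouts were below all 3 NCD knockouts, as were 20.8% of panel genes. The difference passed in a fit of these 2 groups alone (adjusted p = 0.031), with array weights (0.0074), without HFD control replicate 3 (0.013) and without HFD control replicate 4 (0.031). These control mice lie outside the contrast. Leaving either out kept the difference at -1.22 and changed only the spread shared by all groups. Called genes made up 17.7% of the panel in this contrast, all lower on HFD. The genotype by diet term for Myadm was 0.31 (95% CI -1.04 to 1.65, adjusted p = 0.92 by limma), so a difference between genotypes in the diet response was not shown.

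The other members did not pass for diet in either genotype. In controls, HFD minus NCD was -1.54 for Igfbp7 (95% CI -3.50 to 0.42, adjusted p = 0.25), 0.80 for Cd9 (-0.43 to 2.04, 0.36) and 0.65 for Trib1 (-0.16 to 1.46, 0.25). All 4 HFD controls were above the geometric mean of NCD controls for Cd9 and for Trib1. Cd9 passed without NCD control replicate 3, at 1.80 and an adjusted p of 0.013. In knockouts the values were 0.41 for Igfbp7 (-1.46 to 2.29, 0.81), -0.27 for Cd9 (-1.45 to 0.92, 0.81) and 0.41 for Trib1 (-0.36 to 1.19, 0.50). The genotype by diet term was 1.95 for Igfbp7 (adjusted p = 0.52), -1.07 for Cd9 (0.61) and -0.24 for Trib1 (0.93). This term called 0.00% of the panel by limma, with 12 genes at an unadjusted p under 0.05, 7 called with array weights and 2 with voom.

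Across the 6 groups, Myadm had the most graded order of the 4 members. From high to low, its geometric order was aged knockout, aged control, NCD control, NCD knockout, HFD control and HFD knockout. Among the first 4 groups in that order neighbours did not overlap, and at the last 2 steps they did. The order for Igfbp7 was aged knockout, aged control, NCD control, HFD control, HFD knockout and NCD knockout, and each neighbouring pair overlapped. Cd9 and Trib1 both ran from aged knockout to HFD control at the top, ended with NCD and aged controls, and overlapped at every step. These orders include the 52-week mice and are a description.

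Between 16 and 52 weeks on NCD, the differences were larger in knockouts than in controls for all 4 members. In knockouts the log2 difference, 52 minus 16 weeks, was 5.19 for Igfbp7, 2.93 for Myadm, 1.25 for Cd9 and 1.07 for Trib1. In controls it was 0.45, 0.75, 0.13 and -0.01 in the same gene order. The control values depended on single mice: with each mouse left out they ran from -0.30 to 1.40 for Igfbp7 and from -0.44 to 1.13 for Cd9. The knockout value exceeded the control value by 1.12 for Cd9, but by only 0.12 without NCD control replicate 3. Both 52-week groups are those that chose the members, so these values carry no test. The knockout value minus the control value contains the 52-week genotype difference, so the rule favoured values above 0. Over the panel it was above 0 for 37 of 96 genes. The knockout ratio for Igfbp7 was 35.3-fold in mean signal, from 154 to 5452, and for Myadm 7.56-fold, from 257 to 1944. The 16-week knockouts that these ratios start from were below the 16-week controls for both genes. Igfbp7 was in place 1 and Myadm in place 4 of 96 for the age difference in knockouts, against places 25 and 20 in controls. The rule also favoured high places in knockouts.

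How much a gene varied among mice of 1 group differed between the members and, for some of them, from group to group. In HFD controls Igfbp7 had a standard deviation of 2.49 on the log2 scale, the largest of the 96 genes, against a panel median of 0.77. In NCD controls Cd9 reached 1.73, with 3 genes above it and a panel median of 0.55. Both genes were below the panel median in some other groups, such as Igfbp7 in NCD controls (0.33) and Cd9 in HFD controls (0.46). Myadm was tighter than the panel median in 5 of 6 groups, HFD controls being the exception at 1.21. Trib1 stayed below the panel median in all 6 groups, from 0.17 to 0.50.

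The panel holds few relatives of these genes. Of 20 listed genes of the insulin and IGF axis, 4 were measured. On NCD, InsR fell (-3.30, adjusted p = 0.0022) and Irs2, the adaptor below the insulin and IGF1 receptors, rose in knockouts (1.62, adjusted p = 0.038 by limma), while Igfbp7 and IGF1R (0.17, adjusted p = 0.97) did not pass. On HFD only InsR passed of these 4 (-3.93, adjusted p = 9.5e-06 by limma), and for diet 0 of 4 passed in either genotype. Of 16 listed tetraspanins and partners, only Cd9 was measured. Of 25 immediate early and MAPK feedback genes, 6 were measured, Trib1 among them, and 0 passed for genotype on either diet. In controls HFD gave 1 higher, Fos (1.59, adjusted p = 0.012), and 1 lower, Nr4a1 (-1.26, adjusted p = 0.0097 by limma), both activation-induced transcription factors. In knockouts 0 of the 6 passed for diet. Over the whole panel, the shares called for genotype were 5.21% on NCD and 2.08% on HFD. For diet they were 20.8% in controls, mostly lower, and 17.7% in knockouts.

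Of 15 listed raft, annexin, S100 and cytoskeleton genes, 6 were measured, Myadm among them. In controls 3 of 6 fell and 0 rose: S100a4, a calcium-binding protein (-2.51, adjusted p = 6.1e-05), Anxa1, an anti-inflammatory annexin (-2.77, adjusted p = 0.0015 by limma), and Myadm. The median of the 6 was -1.61 against -0.52 for the panel. In knockouts 3 of 6 fell, Anxa1 (-2.41, adjusted p = 0.0046), S100a6 (-2.58, adjusted p = 0.018) and S100a4 (-1.19, adjusted p = 0.033 by limma), with a median of -1.57 against -0.46. For genotype on NCD the only one of the 6 to pass was Lmna, which encodes lamin A and C and rose in knockouts (2.28, adjusted p = 0.0050 by limma), and on HFD 0 passed. Of 20 listed genes of VAT Tregs, 14 were measured. In controls 5 fell on HFD and 0 rose, the ST2 gene Il1rl1 (-2.73, adjusted p = 0.00083) and the receptor gene Klrg1 (-4.42, adjusted p = 0.0012 by limma) among them, and the list median was -1.54 against -0.52 for the panel. In knockouts 3 of 14 fell and 0 rose, with a median of -0.61 against -0.46. Genes lower on HFD made up 17.7% of the panel in either genotype, so the knockout count was near the panel share.

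Likeness to other genes was measured by Pearson's r of log2 signal over the 24 mice, which share groups and panel totals and include the 52-week mice that chose the members, so it is given as a description. Myadm was most like Anxa1 (r = 0.92), the stress-response factor Atf3 (0.92) and the AP-1 subunit Fosb (0.90), and least like the costimulatory receptor ICOS (-0.94). Taken as deviations from group means, the likeness to Anxa1 was 0.34 and that to Fosb 0.68. Igfbp7 was most like Anxa1 (0.78), Fosb (0.73) and Atf3 (0.72) and least like Helios (-0.82), but in deviations these were 0.29, -0.09, -0.05 and -0.10. In deviations it was most like Cdkn1a, a cell cycle inhibitor (0.73). That value rests largely on HFD controls, where the log2 SD was 1.66 for Cdkn1a and 2.49 for Igfbp7. Within them it leans on replicate 3, the lowest of its group for both genes. Cdkn1a was 164 in that mouse against a group median of 1594, and Igfbp7 was 17.1. The likeness was not computed without that mouse. In the other groups the SD of Cdkn1a was 0.06 to 0.32. Cd9 and Trib1 were each other's closest gene (0.67), and next came Igfbp7 (0.59) and Fos (0.57) for Cd9 and Fos (0.62) and Igfbp7 (0.49) for Trib1. In deviations Cd9 and Trib1 were at 0.36, and neither was among the 3 genes most like the other, which were Ccr7 (0.49), Cd80 (0.45) and Ccr2 (0.44) for Cd9 and Rpl19 (0.63), Hprt (0.60) and Ccr7 (0.56) for Trib1. The least like over all mice were Prdm1 for Cd9 (-0.72) and Il1rl1 for Trib1 (-0.83). Igfbp7 and Myadm ran together over all mice (0.70), while in deviations r was -0.49. That negative value leans heavily on HFD control replicate 3, with Igfbp7 at 17.1 and Myadm at 582. It was not computed without that mouse, so opposite movement within groups is not shown.

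**Figure D3:**
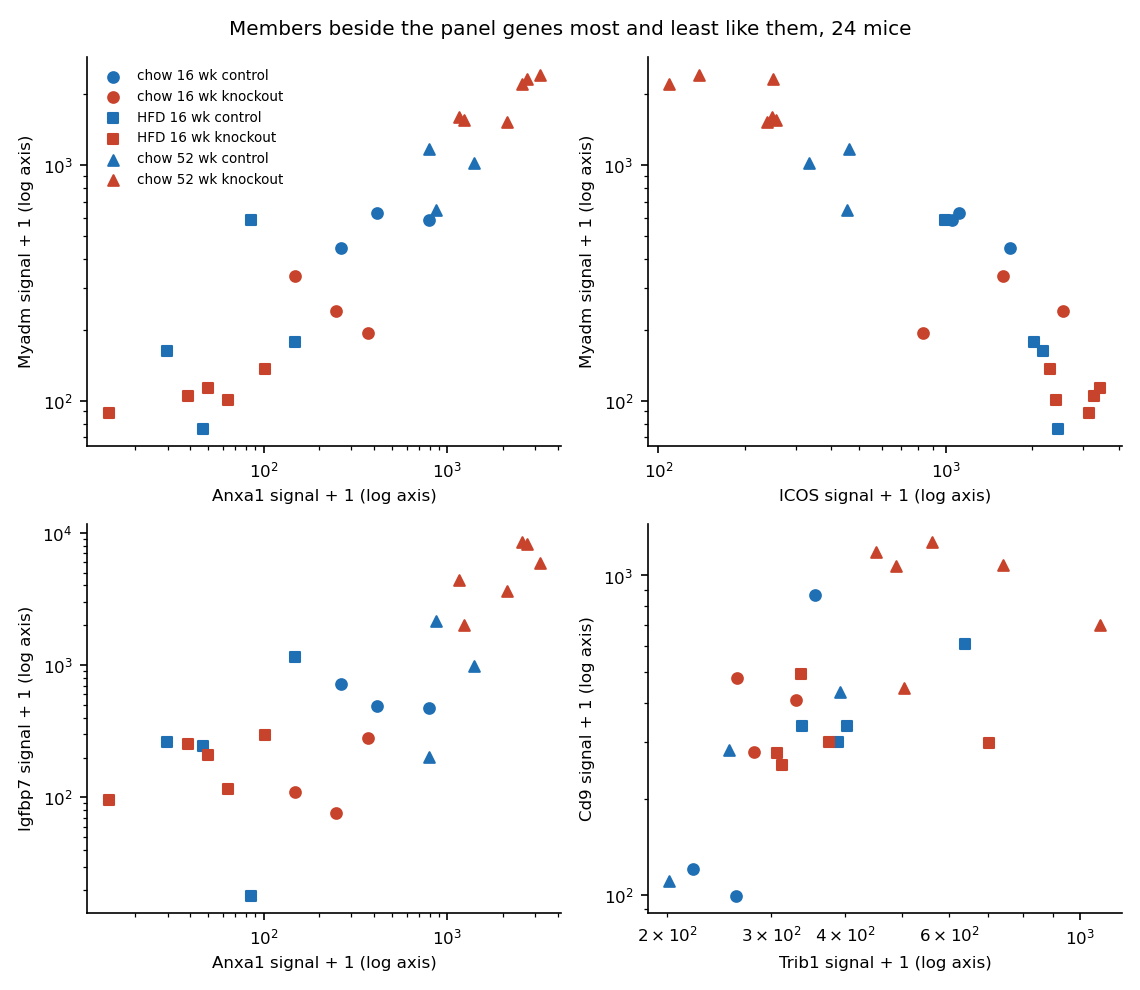
Signal plus 1 (both axes, log scale) of Myadm against Anxa1 and ICOS, Igfbp7 against Anxa1 and Cd9 against Trib1 in 24 mice, with controls in blue, knockouts in red and 1 symbol for each diet and age. Myadm rises with Anxa1 (r = 0.92) and falls with ICOS (r = -0.94), with aged knockouts at one end and HFD mice at the other.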

How the data were processed

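Counts of 96 genes from sorted VAT Tregs of 24 mice were made on an nCounter SPRINT Profiler, per the labels' protocols. The deposited values are nCounter signal, scaled by the authors to similar panel sums. This unit was read from the values. The sources used here do not give background correction, control scaling or software. Panel names matched a mouse symbol for 89 genes and a synonym for 3. Recovered totals of 11446 to 224793 counts set the precision.

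On log2(signal + 1), 6 group means were fitted to all 24 mice with lmFit, contrasts.fit and eBayes of limma 3.58.1 under R 4.3.3. The p-values are two-sided, with Benjamini-Hochberg adjustment across the 96 genes of each of 6 contrasts and a threshold of 0.05. No gene or mouse was left out, and the script was tested on simulated data. The 4 genes and all gene lists were chosen with earlier results of these data known. Other genes named were, for each member, the 3 most and 1 least alike and the 3 most alike in deviations, InsR, and up to 4 per list by smallest p. Not all are named. Samples were grouped by title, and replicate numbers do not mark pairs. Alternatives were pseudocounts of 0.1 and 10, leaving out the lowest 24 genes, other centring, fewer groups, array weights, a variance trend, a replicate block and each mouse left out. Those added after seeing the data were a single total, voom on recovered counts, a depth covariate, a minimum of 20 counts, and leaving out NCD control replicates 2 and 3 together.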

Additional observations from a re-analysis of the deposited data

Results flagged for a closer look

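In groups of 4 to 10 mice, 12 sets of values were checked for a mouse far from the rest, and 3 had one; chance gives about 1 in 20. Cd9 in HFD control replicate 1 was 609 against 299 to 338 in the other mice of its group. Cd9 in HFD knockout replicate 2 was 490, and Trib1 in HFD knockout replicate 1 was 700.3, each the highest of its group.

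The order of genotypes on NCD at 16 weeks was the reverse of that at 52 weeks for 2 genes. On HFD this did not hold for Igfbp7, where 3 of 5 knockouts lay above the geometric mean of controls. The genotype difference was 4.74 higher on the log2 scale at 52 weeks than on NCD at 16 weeks for Igfbp7, every knockout lying on opposite sides of the control mean at the 2 ages. For Myadm it was 2.17 higher than on NCD and 1.87 higher than on HFD, with the same pattern. These differences were not tested, because the 52-week mice chose the members. The rule set the 52-week side, so a member lower in 16-week knockouts had to appear reversed. On NCD all knockouts lay below all controls for 13.5% of panel genes, Igfbp7 and Myadm among them.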

How the results depend on the processing

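Under the alternatives, members called for diet in controls numbered 1 in the main setting and 0 when centred on the sample median, when only the groups of the contrast were fitted, with voom and without NCD control replicates 2 and 3 together. That last setting, chosen after seeing the data, leaves 1 NCD control, assumed to vary like the other groups, and gave Myadm -1.72 (SE 0.72, adjusted p = 0.13 by limma). The replicate block also gave 0 members called (Myadm -1.38, adjusted p = 0.065 by limma) and changed no other count of members called; deviations of same-numbered mice correlated at -0.25 to 0.20, so the numbers were not taken as pairs, and the block left Igfbp7 on HFD at 0.17 and Trib1 over both diets at 0.0040. Leaving out each mouse in turn gave 0 to 2 members called for diet in controls, 0 to 1 for diet in knockouts and 0 to 1 for the mean genotype effect. For diet in knockouts, array weights and fitting only the groups of the contrast gave 1 in place of 0. Signs turned only for values that did not pass. Centred on the 4 reference genes, Igfbp7, Cd9 and Trib1 on HFD were 0.20, 0.041 and 0.16, Trib1 on NCD -0.31, Trib1 genotype by diet 0.46 and Cd9 diet in knockouts 0.091. Centred on the sample median, the last was 0.16 and Trib1 over both diets 0.094, a value that was 0.014 with the depth covariate, 0.059 at a single panel total and 0.020 with voom. Voom gave 0.014 for Igfbp7 on HFD and -0.077 for Myadm genotype by diet. With each mouse left out, Igfbp7 on HFD ran from -1.24 to 0.76, Trib1 on HFD from -0.37 to 0.036, on NCD from -0.074 to 0.27 and over both from -0.15 to 0.058, Cd9 over both from -0.019 to 0.76 and Myadm genotype by diet from -0.13 to 0.85. Panel genes called ran over all alternatives from 1 to 5 on HFD (main 2), 1 to 8 on NCD (5), 1 to 7 for the mean (2), 9 to 26 for diet in controls (20), 1 to 28 for diet in knockouts (17) and 0 to 7 for genotype by diet (0). Centring on the sample median moved the split of higher and lower calls for diet from 3 and 17 to 6 and 12 in controls and from 0 and 17 to 5 and 12 in knockouts. The causes were not tested. All 4 members stayed higher in aged knockouts in each of the alternatives run there. Few counts limit the NCD knockouts, where 4 genes of replicate 3 stand at 32 counts, Igfbp7, Cd9 and Trib1 among them.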

Other observations

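The recovered counts were not spread evenly. Over 558 values between 15 and 75 counts, they piled up near multiples of about 10.2. There were 28 values per count at 20 to 22 counts, against 11.7 at 13 to 19 and 7 at 23 to 29. In the shallowest mouse, NCD knockout replicate 3, 7 of the 96 genes stood at 21 counts and 4 at 32. The spacing differed among mice and was sharper in some (HFD knockout replicates 3 and 4, aged knockout replicate 6) than in others. Igfbp7 in the 3 NCD knockouts, at 22, 18 and 32 counts, lies in this range.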
